A study of Mus musculus with 106 samples.

Results

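Oxidative phosphorylation passes electrons from NADH and succinate to oxygen through a chain of protein complexes in the inner mitochondrial membrane. Complexes I, III and IV pump protons as electrons pass, complex II feeds electrons in from succinate without pumping, and complex V, the ATP synthase, makes ATP from the proton gradient. Most subunits are encoded in the nucleus and imported, while a few core subunits are made inside the mitochondrion, and neurons rely on this chain for most of the ATP that pays for ion pumping and synaptic transmission.

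The nuclear genes of these complexes were taken by symbol: protein-coding genes away from the mitochondrial chromosome whose names begin with Nduf and a subunit letter, the Sdh genes of succinate dehydrogenase, the Uqcr genes and Cyc1, the Cox genes of the families 4 to 8, and the Atp5 genes. The rule found 87 genes among 21897 protein-coding genes and 55401 mouse genes in all, and left out 13 symbols of other gene types. Of the 87 genes, 36 belong to complex I, 4 to complex II, 9 to complex III, 20 to complex IV and 18 to complex V. Ndufa4 and Ndufa4l2, named for complex I, are counted with complex IV, where the Ndufa4 protein is found. Cox8c had a count of 0 in all IP libraries, and the second of a pair of genes that share the symbol Atp5o was also near 0.

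The libraries came from mice that carry a Huntington's disease allele with a very long CAG repeat in the mouse huntingtin gene, Hdh Q7/Q200 (HD), and from Hdh Q7/Q7 controls, all on a 129S4 background and about 9 months old. RNA bound to ribosomes was collected by RiboTag, in which Cre recombinase switches on an HA-tagged ribosomal protein, Rpl22-HA, so that an anti-HA immunoprecipitation (IP) brings down the ribosomes of the Cre-positive cells. All mice were heterozygous for Cre and for RiboTag. There were 106 libraries from 45 mice, 67 from IPs and 39 from total RNA of the same kind of homogenate, the input.

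The Cre drivers were Gad2, active in GABAergic neurons, PV, active in parvalbumin neurons, SST, active in somatostatin neurons, and vGluT2 (vGlut2 in the labels), active in a class of glutamatergic neurons. In the cerebrum, taken without the olfactory bulb, there were 6 control and 6 HD IPs of the Gad2 line, 6 and 5 of PV, 5 and 4 of SST, and 6 and 6 of vGluT2. PV IPs were pooled from duplicate IPs of a homogenate. An HD library each of the PV, cerebral vGluT2 and cerebellar Gad2 IPs, 3 in all, was re-sequenced. In the cerebellum there were 6 control and 6 HD Gad2 IPs, and 5 control and 6 HD vGluT2 IPs. Total RNA came from 13 control and 12 HD cerebra of the 4 lines, and from 7 control and 7 HD cerebella of the Gad2 and vGluT2 lines. A Cre driver marks every cell in which it is or was active, so a Gad2 IP mixes many GABAergic cell types.

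IP libraries held 23256806 to 107753596 counts on mouse genes (median 35874524), and total RNA libraries 21905238 to 62160034 (median 35858945). A gene was tested where its mean count over the libraries compared was over 10, and was called where the adjusted p of edgeR's quasi-likelihood test (Benjamini-Hochberg, over all genes tested) was at most 0.05. Log2 ratios and log2 fold changes are given with their standard error. CPM are counts scaled to a common library size, with TMM factors, and levels of different genes are compared per kb of transcript. Fewer cells of a type and less RNA per cell cannot be told apart in any of these libraries.

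Marker genes fitted the IP labels in most respects. In the cerebral Gad2 IPs all 3 GABAergic markers were above total RNA (median log2 ratio 1.94) and all 6 astrocyte markers below it (-2.81). All 4 PV markers were higher in the PV IPs (2.29) and all 4 SST markers in the SST IPs (2.70), but astrocyte and oligodendrocyte markers were depleted less there. Of the 6 astrocyte markers, 4 were lower in the PV IPs (median -1.49), and 4 were lower and 1 was higher in the SST IPs (-0.92). Both glutamatergic markers were higher in the cerebral vGluT2 IPs (0.65) and all 3 GABAergic markers lower (-2.84). In the cerebellum, all 5 Purkinje cell markers were higher in the Gad2 IPs (2.04) and all 6 granule cell markers in the vGluT2 IPs (0.98).

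The IP libraries of 3 control mice of the vGluT2 line went against their labels. RNA of Y-linked genes was present in the library of only 1 of the 2 brain regions labelled with the same mouse. It summed to 28.6 CPM in cerebral replicate 1 and 0 in cerebellar replicate 1, 0 in cerebral replicate 3 and 101 in cerebellar replicate 3, and 63.7 in cerebral replicate 4 and 0 in cerebellar replicate 4. Total RNA of the mouse of replicate 4 held Y-linked RNA in both regions, 97.6 CPM in cerebellar total RNA replicate 2 and 19 in cerebral total RNA replicate 1. These total RNA libraries stayed in the main fits and when the IPs of the 3 mice were left out. Counts over all members for vGluT2 IPs are therefore also given without the 6 IP libraries, an alternative chosen after the data had been seen. Medians over all members are too, other than for cerebral vGluT2 IPs against total RNA. Counts by complex or gene list are given only with these libraries kept.

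Members took 2.43 ± 0.266% of the counts on protein-coding genes (mean and SD) in the 12 cerebral Gad2 IPs, 2.20 ± 0.236% in the 11 PV IPs and 1.54 ± 0.208% in the 9 SST IPs. The share was 1.93 ± 0.295% in the 12 cerebral vGluT2 IPs, 2.53 ± 0.406% in the 12 cerebellar Gad2 IPs and 2.20 ± 0.284% in the 11 cerebellar vGluT2 IPs. Total RNA held 1.95 ± 0.322% in the cerebrum (n = 25) and 2.10 ± 0.439% in the cerebellum (n = 14). The SST IPs had the lowest mean and the Gad2 IPs of both regions the highest, and the libraries of the other IPs overlapped widely.

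**Figure D1:**
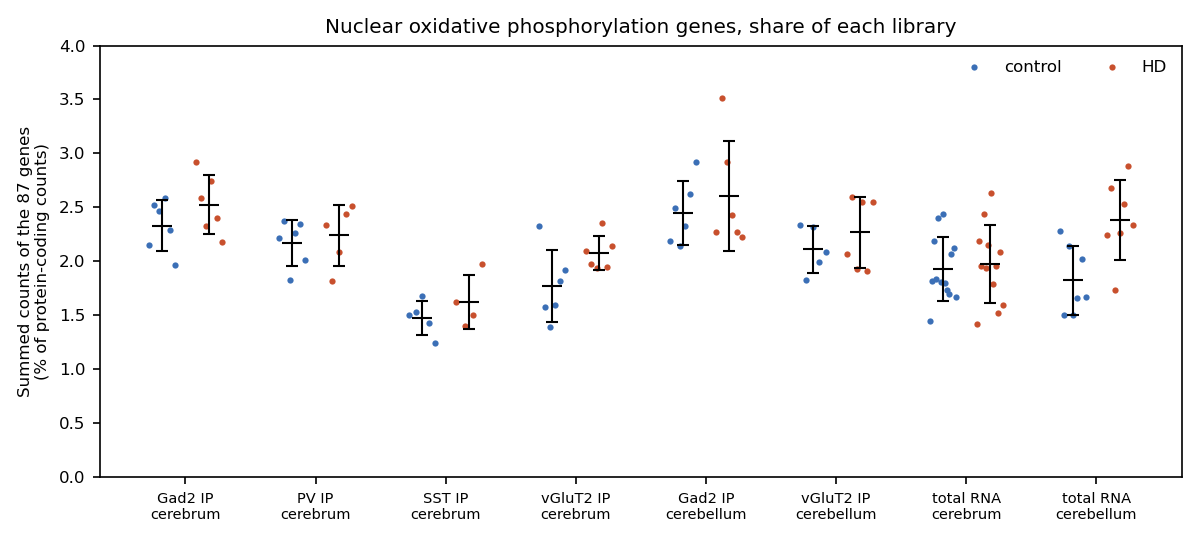
Summed counts of the 87 genes, as a percent of the counts on protein-coding genes, by group; each point is a library, bars are the mean and SD, and control (blue) and HD (red) are drawn apart. SST IPs lie lowest (1.24 to 1.98%), and HD cerebellar total RNA averages 2.38% against 1.82% in controls.

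Per kb of transcript, subunits of complexes IV and V were the most abundant and those of complex II the least. In the cerebellar Gad2 IPs the median member stood at 200 CPM per kb for complex I, 143 for complex II, 268 for complex III, 430 for complex IV and 390 for complex V. PV IPs had 136, 117, 199, 288 and 272 CPM per kb in the same order. In the SST IPs the medians were 101, 85.0, 149, 178 and 182 CPM per kb. In each of the 6 IPs complex II had the lowest median and complexes IV and V had the highest. Ndufb2, Ndufab1, Atp5g1 and Sdhc have long annotated transcripts, so their values per kb are approximate.

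Atp5b, the catalytic beta subunit of ATP synthase, had the highest level per kb of complex V in every IP. It had 1290, 1550 and 1770 CPM per kb as lowest, median and highest value in the cerebellar Gad2 IPs, 1030, 1240 and 1540 in PV, and 517, 739 and 949 in SST. Libraries of SST all lay below those of PV and of cerebellar Gad2. Cox4i1, the largest nuclear subunit of cytochrome c oxidase, was the most abundant member of complex IV in every IP other than cerebellar vGluT2, with a mean of 784 ± 101 CPM per kb in PV and 1200 ± 300 in cerebellar Gad2 IPs (SD). In the cerebellar vGluT2 IPs Ndufa4 took that place at 1340 ± 286 CPM per kb.

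Ndufb8, an accessory subunit of the membrane arm, was the most abundant member of complex I in every IP, from 223 ± 86.3 CPM per kb in SST to 497 ± 156 in cerebellar Gad2. Uqcrh, the hinge protein beside cytochrome c1, was the most abundant of complex III, from 307 ± 134 CPM per kb in SST to 664 ± 243 in cerebellar Gad2. For complex II the leading gene varied with the cell type. Sdha, which holds the FAD and oxidises succinate, led in PV (227 ± 16.7 CPM per kb), SST (192 ± 34.3), cerebellar Gad2 (206 ± 38.5) and cerebellar vGluT2 (177 ± 33.4). Sdhb, the iron-sulfur subunit, led in cerebral Gad2 (225 ± 26.0) and cerebral vGluT2 (198 ± 32.7).

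Of the 83 members with a level over 1 CPM per kb in some IP, 38 had their highest mean in cerebellar Gad2 IPs, 24 in cerebral Gad2, 12 in cerebellar vGluT2, 8 in PV, 1 in cerebral vGluT2 and 0 in SST. The lowest mean fell in SST for 71 of them, in cerebral vGluT2 for 7, in cerebellar vGluT2 for 4 and in cerebellar Gad2 for 1. None of these orderings is a test.

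IPs were compared with total RNA of the same region to ask which members a cell type's ribosomes carry above the tissue average. The 4 cerebral comparisons share the 25 cerebral total RNA libraries, and the 2 cerebellar ones share 14. Both Gad2 IPs were richer in the members than total RNA, the SST IPs were poorer, and the PV and vGluT2 IPs divided by complex and by gene.

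In the cerebral Gad2 IPs 47 of 85 members tested were higher and 7 lower, where 34.5% and 33.5% of all genes were, and the median log2 ratio was 0.30 against 0.04 over all genes. In the cerebellar Gad2 IPs 46 of 84 were higher and 6 lower (34.7% and 32.6% of all genes), with a median of 0.39 against 0.04. With the mouse as a block, in mice with both preparations, 3 members were lower in the cerebral Gad2 IPs and 13 in the cerebellar ones. With total RNA of the Gad2 line alone, 4 were lower in the cerebrum.

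In the SST IPs 7 of 85 members were higher and 62 lower (33.9% and 35.7% of all genes), with a median of -0.67 against -0.02. In the PV IPs 32 of 85 were higher and 30 lower (37.3% and 38.9%), with a median of -0.03 against -0.01, and 21 were higher against total RNA of the PV line alone. Short transcripts, of 1000 bases or less, were low in the same IPs: their median log2 ratio was -0.71 in PV and -0.68 in SST, against -0.03 in cerebral Gad2. Cytosolic ribosomal protein genes, taken by symbol and so together with Rps19bp1 and the Rps6k kinases, were lower for 80 of 93 in PV (median -1.62) and 75 of 93 in SST (-1.13). Their part in the result was not tested.

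In the cerebral vGluT2 IPs 18 of 85 members were higher and 20 lower (34.8% and 33.6% of all genes), with a median of -0.02 against 0.03. Without the IPs of the 3 mice with mixed Y-linked RNA 18 were higher and 18 lower. The lower count was 5 with the mouse as a block and 8 against total RNA of the vGluT2 line alone. In the cerebellar vGluT2 IPs 23 of 84 were higher and 13 lower (32.3% and 36.0%), with a median of 0.06 against 0.00. The count higher was 6 with the mouse as a block, and 14 were higher and 22 lower without the mixed mice (median -0.08).

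Complex I had 23 of 36 members higher and 0 lower in the cerebral Gad2 IPs (median log2 ratio 0.32) and 22 higher and 0 lower in the cerebellar ones (0.39). In PV IPs 5 of 7 genes of its core subunits were higher and 0 lower (median 0.32), and of 29 genes of its accessory subunits, which wrap the core, 9 were higher and 11 lower (-0.09), near the shares of all genes. SST IPs had 1 of 7 core genes higher and 2 lower (-0.19), and 2 of 29 accessory genes higher and 23 lower (-0.66). The 13 mitochondrially encoded subunits were lower than total RNA in all 6 IPs, with medians from -2.27 in SST to -6.12 in cerebellar vGluT2.

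Ndufs1, the largest subunit of complex I and carrier of several of its iron-sulfur clusters, ran from 88.7 through a median of 96.0 to 110 CPM per kb in PV IPs, from 44.4 through 82.1 to 106 in SST, and from 16.6 through 32.0 to 48.3 in cerebral total RNA. All PV libraries lay above all total RNA libraries, while SST overlapped them at its low end. The log2 ratio to total RNA was 1.69 ± 0.11 in PV (adjusted p = 4.9e-16 by edgeR's quasi-likelihood test), 1.36 ± 0.14 in SST (6.3e-10) and 1.04 ± 0.12 in cerebellar Gad2 (1.8e-08). It was smaller but still called in cerebral Gad2 (0.83), cerebral vGluT2 (0.66) and cerebellar vGluT2 (0.55).

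Ndufs4, an accessory subunit needed for a stable complex I, was among the 3 highest ratios in cerebral Gad2 (1.3 ± 0.10), cerebral vGluT2 (1.04 ± 0.10) and cerebellar vGluT2 IPs (0.84 ± 0.08). Sdha, the only complex II gene higher in the SST IPs, had a log2 ratio of 1.03 ± 0.13 there and 1.26 ± 0.10 in PV, and in cerebral vGluT2 IPs its ratio of 0.19 did not pass the test (adjusted p = 0.116).

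Complex III was also uneven. Uqcrb, a small subunit that binds ubiquinone, had a mean of 341 ± 59.2 CPM per kb (SD) in cerebral Gad2 IPs, 122 ± 19.7 in SST and 118 ± 27.4 in cerebral total RNA. Its log2 ratio was 1.5 ± 0.11 in cerebral Gad2 (adjusted p = 1.2e-14, same test), the highest of all members there, 1.0 ± 0.11 in cerebral vGluT2, 0.77 ± 0.11 in cerebellar vGluT2 and 0.15 ± 0.13 in SST. Uqcrc1, a core subunit that resembles mitochondrial processing peptidases, was higher in PV (0.52) and cerebellar Gad2 (0.32) and lower in cerebral vGluT2 (-0.37). Its relative Uqcrc2 was the third highest member in SST (0.57 ± 0.09).

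For complex IV more members were lower than higher in the IPs of PV (11 against 5 of 19, median -0.55), SST (16 against 1, -0.93), cerebral vGluT2 (10 against 4, -0.42) and cerebellar vGluT2 (8 against 3, -0.25). The counts were even in cerebral Gad2 (7 and 7, -0.23) and 7 higher with 5 lower in cerebellar Gad2 (0.16). Cox4i1 was lower in PV (log2 ratio -0.57 ± 0.13) and SST (-1.08 ± 0.16). Cox7b, a small subunit, was instead higher in cerebral Gad2 (1.18 ± 0.11), cerebral vGluT2 (0.88 ± 0.11) and cerebellar Gad2 IPs (1.19 ± 0.14).

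In complex V, 11 of 17 members were higher and 0 lower in cerebral Gad2 IPs (median 0.36), 10 higher and 1 lower in cerebellar Gad2 (0.49), and 1 higher and 13 lower in SST (-0.67). Atp5f1, the b subunit of the stalk that holds the catalytic head still, was the 1 complex V gene higher in SST (0.50 ± 0.08) and one of the 3 highest in cerebellar vGluT2 (0.60 ± 0.06). Atp5b was higher in PV (0.61 ± 0.07), cerebellar Gad2 (0.65 ± 0.11) and cerebral Gad2 (0.34 ± 0.08). In SST its ratio was -0.19 ± 0.09 (adjusted p = 0.0564).

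Several complex IV subunits exist as paired isoforms, one broadly made and one made in few tissues such as heart and skeletal muscle. Cox6a2, Cox8b and Cox7a1 are the muscle forms of Cox6a1, Cox8a and Cox7a2, Cox4i2 is the lung form of Cox4i1, and Cox6b2 is the testis form of Cox6b1. All of these minor forms were scarce beside the common form, yet they were among the members with the widest differences between cell types.

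Cox6a2 in the 6 control PV IPs ran from 26.3 through a median of 37.7 to 40.8 CPM per kb, and the 5 HD PV IPs had 31.9, 20.2, 27.2, 39.3 and 49.0. Control SST IPs had 3.68, 4.86, 5.15, 4.49 and 1.01 CPM per kb, and HD SST IPs 3.11, 2.28, 3.50 and 6.68. Every PV library was therefore above every SST library, and control and HD libraries overlapped in both. Cerebral Gad2 IPs ran from 13.9 through 19.8 to 28.5 CPM per kb, above SST and overlapping the lower PV libraries, and cerebellar Gad2 IPs reached at most 0.469.

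Relative to cerebral total RNA, Cox6a2 was higher in PV IPs (log2 ratio 2.22 ± 0.14, adjusted p = 1.5e-16 by edgeR's quasi-likelihood test) and cerebral Gad2 IPs (1.37 ± 0.14, 2.3e-11), lower in SST (-0.93 ± 0.21, 0.00023) and not called in cerebral vGluT2 (-0.06, 0.72). It made up 6.01 ± 0.567% of the Cox6a pair per kb in PV, 2.82 ± 0.608% in cerebral Gad2, 1.09 ± 0.297% in SST and 0.939 ± 0.176% in cerebral total RNA (mean and SD). In the cerebellum it was close to absent, with counts of 0 to 10 in the 12 Gad2 IPs and a count of 1 in a single library of the 11 vGluT2 IPs.

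Cox8b had 11.3, 12.5 and 21.6 CPM per kb as lowest, median and highest of the control PV IPs, and 9.83, 5.46, 11.1, 13.1 and 18.1 in the HD PV IPs. The control SST IPs had 1.64, 1.22, 1.13, 1.11 and 0, and cerebral Gad2 IPs ran from 0.920 to 5.61. PV libraries were again the highest, with the lowest of them just under the highest Gad2 library. Cox8b was higher in PV IPs than in total RNA (1.67 ± 0.20, adjusted p = 1.9e-09, same test) and lower in the SST, cerebral vGluT2 and both cerebellar IPs (-1.56, -2.49, -3.27 in Gad2 and -1.12 in vGluT2).

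Cox4i2, Cox6b2 and Cox7a1 were instead marks of the cerebellar Gad2 IPs. Cox6b2 ran from 20.0 through 35.8 to 64.7 CPM per kb there, while the cerebral Gad2 IPs ran from 1.71 to 4.84 and the cerebellar vGluT2 IPs from 0.0552 to 2.89. Cox4i2 ran from 8.02 through 12.4 to 22.7 CPM per kb in the cerebellar Gad2 IPs and reached at most 1.18 in cerebral Gad2 and 2.01 in cerebellar vGluT2. Cox7a1 ran from 11.9 through 23.2 to 47.0 CPM per kb, against at most 5.73 in cerebral Gad2 and 6.76 in cerebellar vGluT2. None of these ranges overlapped.

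Against cerebellar total RNA all 3 were higher in the Gad2 IPs, with log2 ratios of 1.10 ± 0.16 for Cox6b2 (adjusted p = 1.1e-06, same test), 0.96 ± 0.19 for Cox4i2 (6.7e-05) and 0.66 ± 0.20 for Cox7a1 (0.0062). In the cerebellar vGluT2 IPs they were lower (-3.55, -3.64 and -2.04), as in all 4 cerebral IPs. Cox6b2 made up 5.21 ± 1.15% of the Cox6b pair per kb in cerebellar Gad2 IPs, Cox7a1 4.85 ± 0.899% of the Cox7a family and Cox4i2 1.14 ± 0.247% of the Cox4 pair. In these IPs all 4 endothelial markers were lower than in total RNA (median -2.72), and 3 of the 4 were higher than in cerebral Gad2 IPs (0.91). The part of vessel RNA in the result was not tested.

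**Figure D2:**
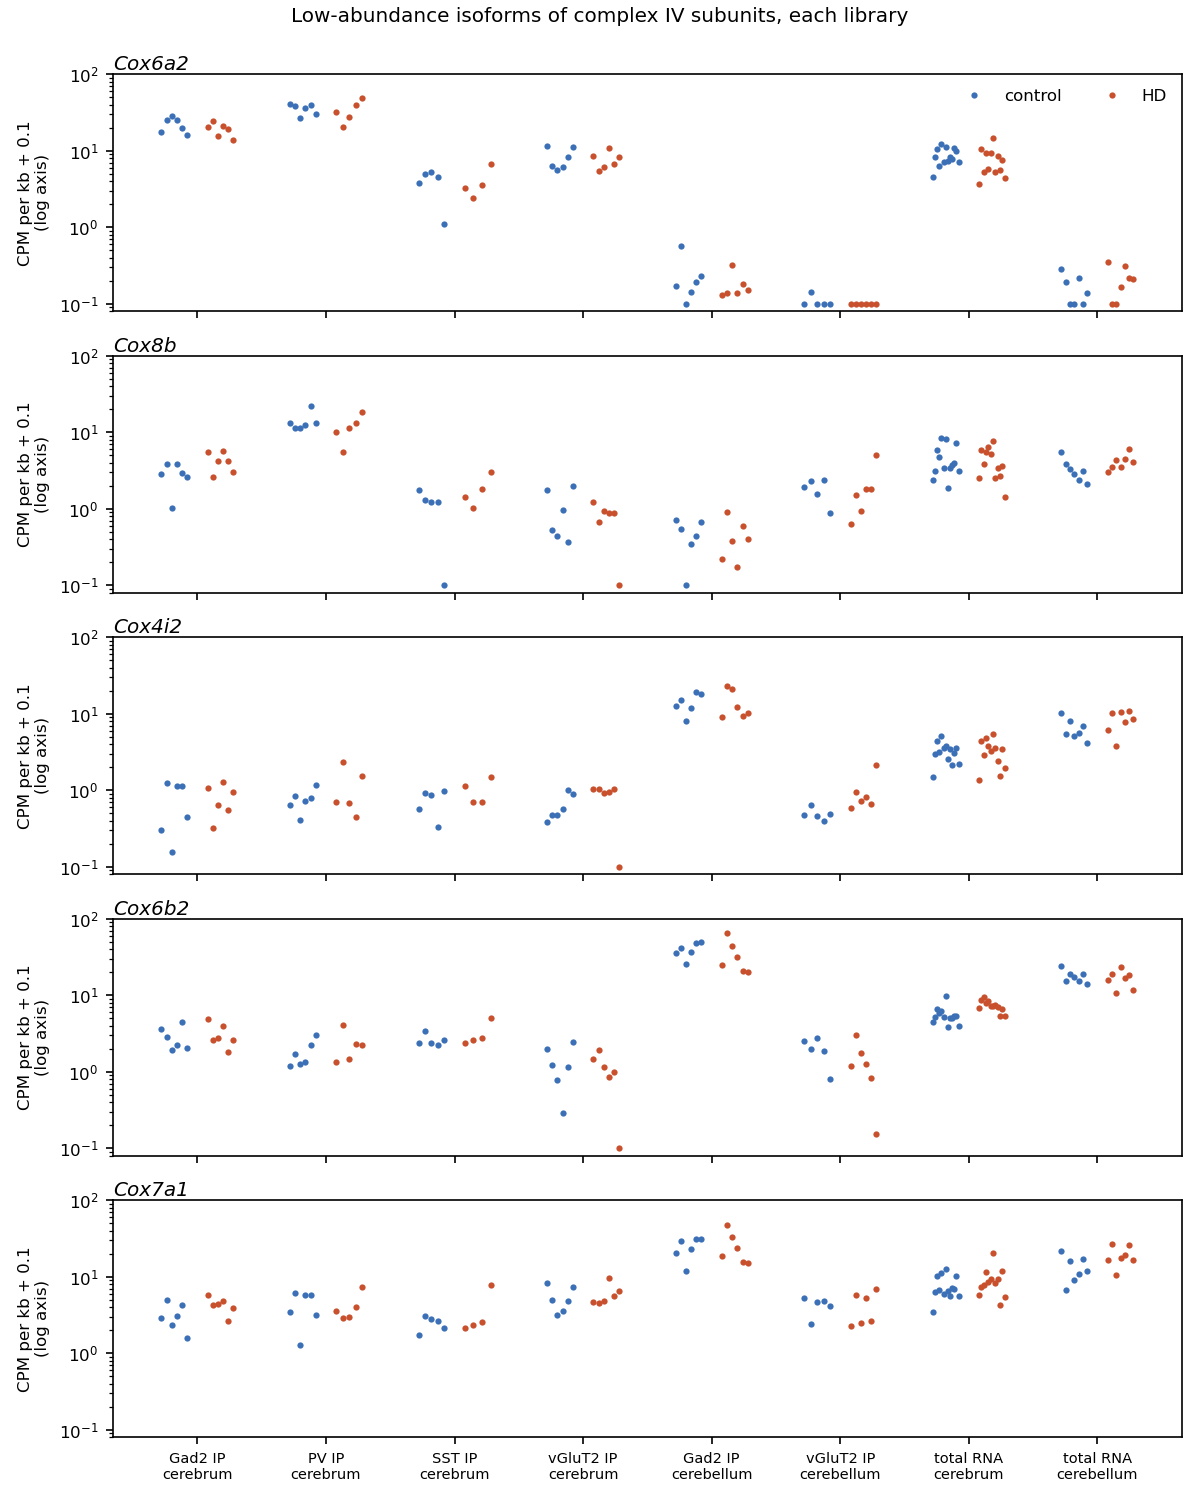
Levels of the minor complex IV isoforms in CPM per kb, with 0.1 added, on a log axis, by IP cell type and total RNA; each point is a control (blue) or HD (red) library. Cox6a2 is highest in PV IPs (mean 34.4), and Cox4i2, Cox6b2 and Cox7a1 are highest in cerebellar Gad2 IPs (14.1, 36.7 and 25.0).

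Ndufa4l2, the rare relative of Ndufa4, was lower than total RNA in all 6 IPs, with log2 ratios from -2.22 in SST to -3.23 in cerebellar vGluT2. Its mean was 2.93 ± 0.8 CPM per kb in cerebral total RNA and at most 0.586 in any IP. Cox7b2 was the lowest member in the cerebellar vGluT2 IPs (-4.08 ± 0.32). The ring subunit c of ATP synthase is encoded by Atp5g1, Atp5g2 and Atp5g3, which make the same mature protein, so reads may be shared between them uncertainly. Atp5g3 supplied 69.4 ± 1.94% of their summed level per kb in cerebral Gad2 IPs, 72.9 ± 2.67% in PV and 59.3% in cerebral total RNA.

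Other genes around the chain were counted in the same comparisons with total RNA. Assembly factors, which build the complexes without staying in them, were higher for 28 of 45 and lower for 4 in cerebral Gad2 IPs (median 0.29), and higher for 13 and lower for 20 in SST (-0.16). The 10 carriers of electrons and nucleotides were higher for 9 and lower for 1 in PV IPs (0.66) and higher for 9 and lower for 0 in cerebellar Gad2 (0.58). Of 14 TCA cycle genes, 12 were higher and 2 lower in PV (0.60). The 13 regulators of mitochondrial biogenesis were higher for 10 and lower for 1 in PV (0.54). Mitochondrial ribosomal protein genes were higher for 53 of 78 in cerebral Gad2, with 0 lower, and higher for 11 and lower for 47 in SST.

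Contrasts between IPs put the cell types side by side in a fit of all 67 IP libraries, with both genotypes weighted equally. PV against SST asked how a pair of interneuron classes differ. PV IPs were higher for 67 of 85 members and lower for 1, where 18.6% and 12.1% of all genes were, and the median log2 ratio was 0.57 against 0.01. Every complex took part: 28 of 36 members of complex I were higher, all 4 of complex II, 8 of 9 of complex III, 12 of 19 of complex IV and 15 of 17 of complex V, with medians from 0.40 to 0.66. The 1 lower gene, Cox7b2 (-1.83 ± 0.50), was not called with the 2 cell types alone or with controls alone.

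Atp5b ran from 1030 to 1540 CPM per kb in PV and from 517 to 949 in SST, with no overlap and a log2 ratio of 0.87 ± 0.09 (adjusted p = 7.2e-12 by edgeR's quasi-likelihood test). Atp5a1, the alpha subunit, ran from 669 to 867 in PV and from 309 to 482 in SST (0.99 ± 0.10, 1.5e-11). The steepest ratios were those of Cox8b (3.28 ± 0.42) and Cox6a2 (3.19 ± 0.24). Ndufs1, for which both IPs stood well above total RNA, was closer between them (0.39 ± 0.14, 0.024).

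Other mitochondrial genes lay on the same side, with 12 of 14 TCA cycle genes higher in PV and 0 lower (median 0.54) and 41 of 78 mitochondrial ribosomal protein genes higher and 0 lower (0.29). So did the genes of glycolysis and pyruvate entry, 17 of 22 higher and 1 lower (0.60). Cytosolic ribosomal protein genes were lower for 37 of 92 and higher for 1 (-0.34), and short transcripts had a median of 0.03. Of the 6 oligodendrocyte markers, 5 were lower in PV (-0.75), and so were 3 of 6 astrocyte markers (-0.54). The part of these glial differences in the result was not tested.

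In PV against cerebral Gad2 IPs most members were lower and a few were higher. Of 85 members 11 were higher in PV and 56 lower (35.2% and 29.3% of all genes), with a median of -0.36 against 0.07. Among the higher ones were Cox8b (1.98 ± 0.35), Ndufs1 (0.84 ± 0.13), Cox6a2 (0.84 ± 0.20), Sdha (0.75 ± 0.10), Uqcrc2 (0.56 ± 0.09), Ndufa10 (0.50 ± 0.08), Uqcrc1 (0.48 ± 0.10) and Atp5b (0.26 ± 0.08). Ndufa10 falls outside the naming rule and was named after its value was seen.

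Accessory subunits of complex I were lower in PV for 25 of 29 and higher for 2 (median -0.49), and its core genes were higher for 2 and lower for 3 of 7 (-0.22). The lowest ratios were those of Cox7b2 (-1.5 ± 0.48), Ndufa7 (-0.90 ± 0.16) and Atp5g2 (-0.80 ± 0.12). Short transcripts as a whole were lower in PV for 528 and higher for 52 (median -0.61), cytosolic ribosomal protein genes lower for 78 and higher for 3 (-0.74), and mitochondrial ribosomal protein genes lower for 55 of 78 (-0.39). TCA cycle genes were higher for 12 of 14 and lower for 0 (0.43). All 6 astrocyte markers (1.3), all 6 oligodendrocyte markers (1.19) and all 4 endothelial markers (1.33) were higher in PV and 4 of 5 microglial markers were lower (-1.46). Both glutamatergic markers (2.49) and 5 of 6 granule cell markers (2.65) were also higher, and all 6 striatal projection neuron markers were lower (-3.40). The part of these markers in the result was not tested.

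Cerebral vGluT2 IPs lay below cerebral Gad2 IPs across the complexes, with 1 of 85 members higher and 44 lower (18.5% and 25.0% of all genes) and a median of -0.29 against -0.04. Without the mixed mice 1 was higher and 35 lower (-0.24), and in controls alone 0 were higher and 21 lower. Complex I had 21 of 36 members lower, complex II all 4, complex III 4 of 9, complex IV 8 of 19 and complex V 7 of 17. The lowest ratios were those of Cox8b (-2.17 ± 0.37), Cox6b2 (-1.45 ± 0.32) and Cox6a2 (-1.44 ± 0.20), and Atp5b had -0.43 ± 0.08. The 1 higher gene was Cox7a1 (0.58 ± 0.24, adjusted p = 0.0417, same test), which was not called without TMM factors, without the filter on low counts or in controls alone. TCA cycle genes were lower for 10 of 14 and higher for 0 (median -0.27). Of the markers, astrocyte genes were lower for 4 of 6 and higher for 2 (-0.80), oligodendrocyte genes lower for all 6 (-0.93), microglial genes for all 5 (-3.27) and endothelial genes for 3 of 4 (-0.81), and their part in the result was not tested.

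Cerebellar vGluT2 IPs, rich in granule cell markers, had 2 of 85 members higher than cerebellar Gad2 IPs and 32 lower (35.5% and 32.8% of all genes), with a median of -0.19 against 0.03. The share lower was near that of all genes. Without the mixed mice 2 were higher and 32 lower (-0.30). The 2 higher genes were Cox8b (2.25 ± 0.40) and Cox8a (0.73 ± 0.16), both isoforms of the same small subunit. Cox8b had counts of only 0 to 16 in the Gad2 IPs and 6 to 58 in the vGluT2 IPs. Cox8a ran from 849 through 1110 to 2290 CPM per kb in vGluT2 and from 531 through 606 to 1420 in Gad2, so the groups overlapped. Cox4i2 (-4.56 ± 0.38) and Cox6b2 (-4.54 ± 0.35) had the lowest ratios to Gad2 that rest on counts in both IPs, and Ndufs1 had -0.39 ± 0.13. Markers of astrocytes were lower in vGluT2 for 5 of 6 (-0.86), of oligodendrocytes for 5 of 6 (-0.51), of microglia for all 5 (-2.48) and of endothelial cells for 2 of 4 (-0.60), and their part in the result was not tested.

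The cerebellar and cerebral Gad2 IPs came from the same 12 mice and their members were close in level, with 11 of 85 higher in the cerebellum and 6 lower (32.3% and 33.7% of all genes) and a median of 0.04 against 0.00. The isoforms gave the extremes. Cox4i2 (4.34 ± 0.36, adjusted p = 8.1e-17 by edgeR's quasi-likelihood test), Cox6b2 (3.64 ± 0.32) and Cox7a1 (2.77 ± 0.25) were higher in the cerebellum. Cox8b (-3.19 ± 0.40) and Cox7a2l (-0.47 ± 0.12), a factor of supercomplex assembly, were lower. So was Cox6a2, which is given no ratio, since its counts in the cerebellar IPs were 0 to 10. Those of Cox8b there were 0 to 16, so its ratio is approximate. Among the representatives Ndufs1 (0.52 ± 0.12), Sdha (0.48 ± 0.09) and Atp5b (0.43 ± 0.08) were higher. In the cerebellar IPs 4 of 6 astrocyte markers were higher and 1 lower (1.375), and 2 of 6 oligodendrocyte markers (0.18) and 3 of 4 endothelial markers (0.91) were higher. All 5 microglial markers were lower (-1.25), and the part of these markers in the result was not tested.

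In the vGluT2 line, 31 of 85 members were higher in the cerebellar IPs and 6 lower (39.7% and 34.3% of all genes), with a median of 0.15 against 0.08. This split depended on the scaling, since DESeq2 size factors gave 17 higher and 15 lower. Without the mixed mice 15 were higher and 12 lower (0.04), with the mouse as a block, in 11 mice, 12 were lower, and in controls alone 19 were higher and 3 lower. Cox8b (1.23 ± 0.38), Ndufa4 (0.81 ± 0.12) and Cox8a (0.66 ± 0.16) had the highest ratios. Ndufa4 ran from 994 through 1300 to 1730 CPM per kb in the cerebellum and from 503 through 835 to 916 in the cerebrum, without overlap. Cox7b2 (-1.39) and Cox7a2l (-0.46) were among the lowest, and Cox6a2, with a count in 1 of the 11 cerebellar libraries, is given no ratio. In the cerebellar IPs all 4 endothelial markers were higher (0.95), 4 of 6 astrocyte markers were higher and 1 lower (0.83), 4 of 6 oligodendrocyte markers were higher (0.49) and 3 of 5 microglial markers were lower (-0.49), and their part in the result was not tested.

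HD and control IPs were compared within each cell type to ask whether the members differed with genotype at an age before motor symptoms. No member was called in any of the 6 IPs by edgeR's quasi-likelihood test. Medians over the members ranged from 0.01 in PV to 0.23 in cerebral vGluT2 on the log2 scale, and HD and control libraries overlapped for every member except Sdhd in cerebral vGluT2, where 0.690% of all genes tested did not overlap and 0.00697% were called.

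In the cerebral Gad2 IPs, which include striatal projection neurons, edgeR called 0 of 85 members (0.0279% of all genes) and DESeq2 called 0. At an unadjusted p under 0.05 there was 1 (1.18%, against 9.15% of all genes). The members' median log2 fold change was 0.07 against -0.01 over all genes, and leaving out each library in turn it ran from 0.01 to 0.17. The medians by complex were 0.07, 0.12, 0.10, 0.06 and 0.08 from I to V. Markers of striatal projection neurons had a median of -0.57 in the same comparison, 5 of 6 at an unadjusted p under 0.05 and 0 called. Microglial markers had a median of 0.84, all 5 above 0 and 3 at an unadjusted p under 0.05, and astrocyte markers -0.56, 0 of 6 above 0, with 0 called in either.

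Atp5s, a factor linked to ATP synthase, was the 1 gene at an unadjusted p under 0.05 there. It ran from 16.4 through a median of 20.0 to 28.5 CPM in controls and from 11.8 through 14.8 to 20.9 in HD, a log2 fold change of -0.42 ± 0.18 (edgeR's adjusted p = 0.536). The groups overlapped. Cox8b had the highest fold change (0.54 ± 0.32) and Cox7b2 the lowest (-0.96 ± 0.49), both at under 2 CPM.

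In the PV IPs 0 of 84 members were called by edgeR (0.0340% of all genes), DESeq2 called 0, and the median was 0.01 against 0.00. At an unadjusted p under 0.05 there was 1 (1.19%, against 4.28% of all genes). Ndufs1 was that gene, with 242, 268 and 287 CPM as lowest, median and highest of the controls and 278, 291 and 319 in HD (0.15 ± 0.07, edgeR's adjusted p = 1.0). All 5 HD libraries lay above the control median, and the groups overlapped. Cox4i2 (0.60 ± 0.46) and Cox8b (-0.27 ± 0.25) had the highest and lowest fold change. HD replicate 3 had the highest Cox4i2 of the PV IPs (2.26 CPM per kb) and the lowest Cox8b (5.46). It held 1570 CPM of Purkinje and 702 of granule cell markers, against 68.4 to 112 and 91.8 to 154 in the other HD libraries and at most 657 and 354 in controls. Granule cell markers had a median of 0.63 and Purkinje cell markers 0.57, with 0 called. Their part in the result was not tested.

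In the SST IPs 0 of 85 members were called by edgeR (0% of all genes), DESeq2 called 0, and the median was 0.20 against 0.01. At an unadjusted p under 0.05 there were 0, against 1.41% of all genes. The values leaned one way, with 80 of 85 above 0, among them all 36 of complex I and all 19 of complex IV (median 0.33). Control replicates 3, 4 and 6 had mouse labels starting with Z, and the other control and all HD IPs labels starting with BR. Genotype was thus partly confounded with the series of labels, and the part of that series in the lean was not tested. Without a single library the median ran from -0.01 to 0.30, and with the replicate block it was 0.08. HD replicate 4 had a member share of 1.98%, against 1.40 to 1.62% in the other HD libraries, and a share of cytosolic ribosomal protein genes of 2.66%, against 0.94 to 1.66%. Cytosolic ribosomal protein genes had a median of 0.57, with 85 of 93 above 0, the 13 mitochondrially encoded subunits 0.84, all above 0, and short transcripts 0.20, with 675 of 824 above 0. All 4 endothelial markers (median 0.37) and all 5 microglial markers (0.29) were above 0, and all 3 GABAergic markers below it (-0.15), with 0 called. Their part in the lean was not tested. Cox4i1 ran from 278 through 432 to 515 CPM in controls and from 389 through 498 to 825 in HD (0.40 ± 0.23). Ndufa4l2 (0.96 ± 0.72) and Atp5s (-0.27 ± 0.20) were at the ends.

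In the cerebral vGluT2 IPs 0 of 84 members were called by edgeR (0.00697% of all genes), 10 passed at an unadjusted p under 0.05 (11.9%, against 7.28% of all genes) and DESeq2 called 0. The median was 0.23 against -0.02, with 80 of 84 above 0, and without a single library it ran from 0.16 to 0.32. Without the mixed mice 0 were called and the median was 0.21. All 36 members of complex I and all 9 of complex III were above 0. The 13 mitochondrially encoded subunits lay the other way, with a median of -0.73 and 0 above 0, and 75 of 78 mitochondrial ribosomal protein genes were above 0 (0.17). Short transcripts had a median of 0.14, with 629 of 838 above 0. All 6 astrocyte markers were below 0 (-0.45), and striatal projection neuron markers had a median of -0.43, 3 of 6 at an unadjusted p under 0.05, with 0 called. Their part in the lean was not tested.

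Sdhd, a membrane anchor of complex II, had 81.3, 99.3 and 104 CPM as lowest, median and highest of the 6 controls and 105, 106 and 113 in the 6 HD IPs of cerebral vGluT2 (0.19 ± 0.09, edgeR's adjusted p = 0.677). Here the groups did not overlap, by a narrow margin. Cyc1, cytochrome c1 of complex III, ran from 128 through 184 to 233 CPM and from 198 through 217 to 267 (0.31 ± 0.13, 0.677), and Atp5b from 1170 through 1510 to 1660 and from 1500 through 1680 to 1930 (0.24 ± 0.10, 0.677). Both overlapped. Sdhd and Cyc1 were named after their values were seen. The ends were Cox4i2 (0.49 ± 0.70) and Cox7b2 (-0.53 ± 0.88). The re-sequenced HD library of this IP stood apart, with a count of 0 for Cox4i2, Cox6b2 and Cox8b at 60611448 counts in all, where the other HD libraries had 22 to 33, 16 to 48 and 9 to 15. Without it 0 members were called, the median was 0.21 and the fold change of Cox4i2 was 0.77.

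In the cerebellar Gad2 IPs 0 of 83 members were called by edgeR (0.0142% of all genes), 0 passed at an unadjusted p under 0.05, DESeq2 called 0, and the median was 0.09 against 0.00. All 29 accessory genes of complex I were above 0 (median 0.15), and its core genes had a median of 0.01. Without a single library the median of all members ran from -0.07 to 0.20, on both sides of 0. HD replicate 4 had the largest member share of this group, 3.51%. Cox6b2 ran from 25.2 through 38.5 to 49.1 CPM per kb in controls and from 20.0 through 27.8 to 64.7 in HD. Cox7b2 (0.34 ± 0.57) and Ndufa4l2 (-0.56 ± 0.39) were at the ends.

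The cerebellar vGluT2 IPs had the most genes called of the 6 IPs, 2.11% of all genes, and 0 of 83 members by edgeR, with 2 at an unadjusted p under 0.05, 0 by DESeq2 and a median of 0.05 against -0.01. Without the mixed mice 0 were called and the median was 0.24. Atp5b ran from 1650 through 2080 to 2200 CPM in controls and from 2060 through 2410 to 2980 in HD (0.30 ± 0.11, edgeR's adjusted p = 0.222), with 5 of 6 HD libraries above the control median. Cox4i2 ran from 0.197 through 0.252 to 0.371 CPM and from 0.329 through 0.463 to 1.46 (1.18 ± 0.46, 0.236), and Ndufa4l2 had the lowest fold change (-0.72 ± 0.75). Of 6 granule cell markers 3 were lower in HD (median -0.58). The HD effect in cerebellar Gad2 minus that in cerebellar vGluT2 IPs was called for 0 of 83 members by edgeR (0.107% of all genes), with 1 at an unadjusted p under 0.05, 0 by DESeq2 and a median of 0.13 against 0.04. Without the mixed mice it was called for 0 members, with a median of -0.11. Without HD Gad2 replicate 4 the median was -0.12, and without any other single library it ran from 0.02 to 0.20.

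**Figure D3:**
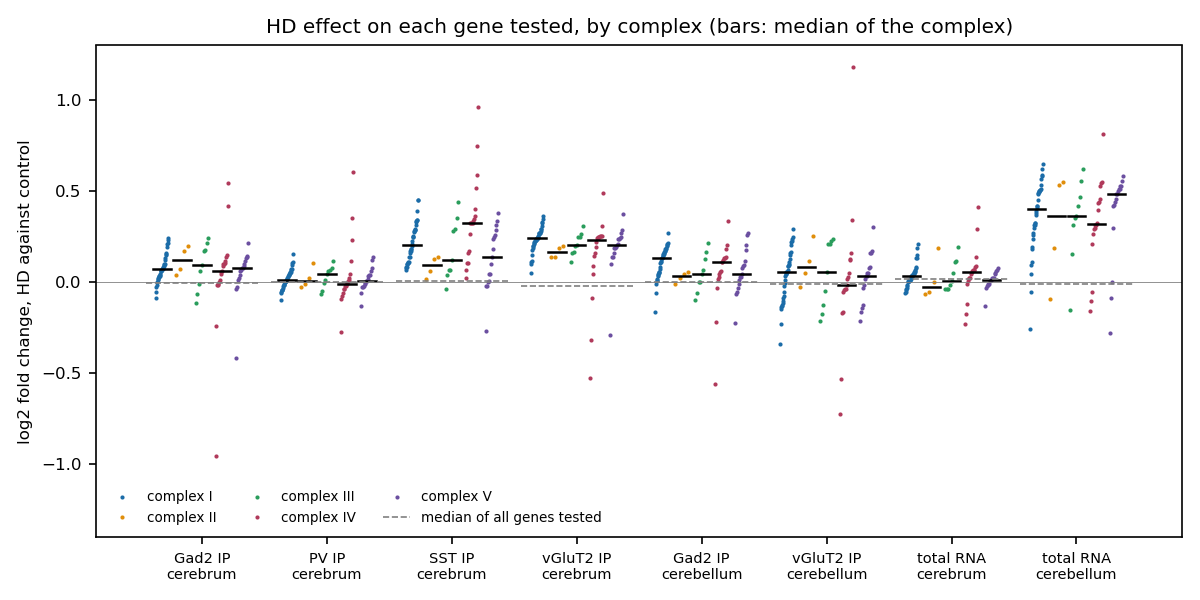
Log2 fold change of HD over control for each member, by complex, in the 6 IPs and total RNA of both regions; each point is a gene, black bars are the medians by complex and dashed lines the median of all genes tested. Most points are above 0 in SST and cerebral vGluT2 IPs (medians 0.20 and 0.23) and lie further above it in cerebellar total RNA (0.42).

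For total RNA the fit held a term for each Cre line. In the cerebrum 0 of 85 members were called by edgeR (0.645% of all genes), 1 passed at an unadjusted p under 0.05, DESeq2 called 1, and the median was 0.03 against 0.02. That gene was Cox6b2, with 1.94, 2.72 and 5.17 CPM as lowest, median and highest of the 13 controls and 2.93, 3.88 and 5.00 of the 12 HD libraries (0.41 ± 0.12, edgeR's adjusted p = 0.128). All 12 HD libraries were above the control median. edgeR called 1 member without control SST replicate 1. Atp5b ran from 1190 through 1670 to 2060 CPM and from 1210 through 1730 to 2110 (0.03 ± 0.08).

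With all libraries kept, cerebellar total RNA was the only HD comparison within a group with members called by edgeR. There 33 of 84 were higher in HD and 0 lower, where 24.5% of all genes were called, 1732 higher and 1812 lower. The median was 0.42 against -0.01. Calls came from every complex, with 15 in complex I, 2 in II, 3 in III, 4 in IV and 9 in V, and fold changes ran from 0.31 to 0.81 on the log2 scale with adjusted p from 0.0216 to 0.0491. For 0 of the 33 did the groups separate fully.

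Cox4i1 had 937, 734 and 872 CPM in the control Gad2 line and 734, 624, 762 and 718 in the control vGluT2 line, and 1020, 1320 and 815 in the HD Gad2 line and 2000, 1450, 1530 and 1470 in the HD vGluT2 line. The HD vGluT2 libraries lay above all others, with HD Gad2 replicate 2 the nearest of these. Its log2 fold change was 0.81 ± 0.17 (adjusted p = 0.0216 by edgeR's quasi-likelihood test), with 7 of 7 HD libraries above the control median.

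Atp5b had 1860, 1460 and 1850 CPM in the control Gad2 line, 1260, 1480, 1830 and 1440 in the control vGluT2 line, 1890, 2300 and 1700 in the HD Gad2 line and 2590, 2470, 2610 and 2330 in the HD vGluT2 line (0.50 ± 0.13, adjusted p = 0.0287, same test). Uqcrc1 had 306, 264 and 385, then 219, 278, 291 and 262 CPM in the controls, and 338, 427 and 275, then 718, 461, 469 and 438 CPM in HD (0.62 ± 0.18, 0.034). In both genes the HD vGluT2 libraries were the high ones and HD Gad2 replicate 3 lay among the controls. Other calls included Ndufv1, which binds NADH (0.58 ± 0.16), Sdhb (0.55 ± 0.18), Atp5c1, the rotor shaft (0.56), and Atp5g1, Atp5g2 and Atp5g3 (0.49, 0.53 and 0.46). Ndufv1, Sdhb and Atp5c1 were named after their values were seen. Ndufs1 (-0.26 ± 0.16) and Sdha (-0.09 ± 0.13) were not called.

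Many of the calls were lost when a single library was left out. None was made without control vGluT2 replicate 1, 2, 3 or 4, HD Gad2 replicate 2 or HD vGluT2 replicate 2, 3 or 4, where edgeR's lowest adjusted p of the members was 0.0503 to 0.0598. There was 1 without control Gad2 replicate 2, where 2.08% of all genes were called. In the 8 fits without a call, the members' median stayed at 0.35 to 0.43, and the genes called fell from 3544 to 96 to 143. The count was 17 of 84 without HD vGluT2 replicate 1 (8.83% of all genes) and 22 without HD Gad2 replicate 1 (16.7%). It was 56, 55 higher and 1 lower, without HD Gad2 replicate 3, where 51.1% of all genes were called. It was 9 of 84 with library totals in place of TMM factors, where 19.9% of all genes were called. In every one of these fits all 33 fold changes were above 0. The vGluT2 line alone gave 53 calls (median 0.59), with 51.7% of all genes called. In the Gad2 line alone edgeR called 0 members and 0 genes of any kind, with 0 members at an unadjusted p under 0.05 and a median of 0.15.

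Other values moved in the same libraries. Member shares were 2.28, 1.5 and 2.14% in the control Gad2 line and 1.5, 1.66, 2.02 and 1.67% in the control vGluT2 line, against 2.24, 2.68 and 1.73% and 2.26, 2.53, 2.88 and 2.34% in HD. Cytosolic ribosomal protein genes were higher for 44 of 93 and lower for 2 (median 0.47), genes of glycolysis and pyruvate entry higher for 11 of 22 and lower for 0 (0.39), and short transcripts higher for 122 of 845 and lower for 23 (0.25). Mitochondrially encoded subunits were lower for 3 of 13 and higher for 0 (-0.44). Of the markers, astrocyte genes were lower for 3 of 6 (-0.49), their summed level running from 2160 through 2730 to 3270 CPM in controls and from 1780 through 1920 to 2720 in HD. Microglial genes were higher for 3 of 5 (0.51), from 73.5 through 84.8 to 97.6 CPM in controls and from 83.7 through 129 to 143 in HD. Purkinje cell genes were lower for 2 of 5 (-0.55), granule cell genes for 1 of 6 (-0.53) and GABAergic genes for 2 of 3 (-0.36), and oligodendrocyte genes were higher for 1 of 6 and lower for 2 (0.03). Of the 2 glutamatergic genes 1 was called higher, and the other lay below 0 without a call (median -0.38). Their summed level was 909, 758 and 901 CPM in the control Gad2 line and 662, 585, 749 and 494 in the control vGluT2 line. In HD these markers summed to 877, 1110 and 612 CPM in the Gad2 line and 1300, 1390, 1240 and 1240 in the vGluT2 line. Their part in the result was not tested.

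Differences between HD effects were then tested, a choice made after the data had been seen. They share libraries with the comparisons above. The effect in the vGluT2 line minus that in the Gad2 line of cerebellar total RNA was called for 0 of 84 members by edgeR (1.64% of all genes), with 19 at an unadjusted p under 0.05 (22.6%, against 28.9% of all genes). DESeq2 called 3 (3.57%, against 12.7% of all genes). The median difference was 0.40 against -0.01. The lowest adjusted p was 0.0619, that of Cox4i1 (0.87 ± 0.24). It was called for 10 members without control Gad2 replicate 2 (11.9%, against 16.5% of all genes). Without HD Gad2 replicate 2 it was called for 13 members (15.5%, against 21% of all genes). Both shares are below those of all genes. Without a single library the median difference ran from 0.23, without HD Gad2 replicate 3, to 0.62, without HD Gad2 replicate 2.

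The effect in cerebellar minus cerebral total RNA was called for 6 of 85 members, all higher (7.06%, against 8.36% of all genes), with a median of 0.40 against 0.00. They were Cox4i1 (0.78 ± 0.22), Uqcrc1 (0.66 ± 0.20), Ndufv1 (0.63 ± 0.18), Atp5c1 (0.59 ± 0.18), Atp5b (0.48 ± 0.14) and Atp5a1 (0.40 ± 0.12), with edgeR's adjusted p from 0.0401 to 0.0442. DESeq2 called 11, 10 higher and 1 lower (12.9%, against 18.7% of all genes), and 0 passed without the filter on low counts (1.93% of all genes). Some mice gave total RNA of both regions. With the mouse as a block, also chosen after seeing the data, in 3 control and 2 HD mice of the vGluT2 line, 36 members were higher and 1 lower, with a median of 0.70 and 27.3% of all genes called. Among cerebellar libraries, 0 were called without control vGluT2 replicate 1, 2, 3 or 4, HD Gad2 replicate 2 or HD vGluT2 replicate 2, 3 or 4. The count was 1 without control Gad2 replicate 2 (3.99% of all genes) or HD vGluT2 replicate 1 (1.65%). It was 15 without control Gad2 replicate 1 (17.6%, against 18.5% of all genes). Without control Gad2 replicate 3 it was 21, 1 of them lower (24.7%, against 23.5%), and without HD Gad2 replicate 3 it was 32 (37.6%, against 37.8%). Among cerebral libraries, 0 were called without control Gad2 replicate 2 or 3, control PV replicate 3, control vGluT2 replicate 1 or 2, HD Gad2 replicate 1, HD PV replicate 2 or 3, HD SST replicate 2 or HD vGluT2 replicate 1 or 3. The count was 1 without control SST replicate 2 (1.18%, against 3.16% of all genes) and 2 without control SST replicate 3 (2.35%, against 3.21%). It was 10 without control SST replicate 4 (11.8%, against 15.6%) and 11 without control PV replicate 2 (12.9%, against 16.6%). Without HD Gad2 replicate 3 it was 11, 1 of them lower (12.9%, against 19.3%). Without control Gad2 replicate 1 it was 17, 1 of them lower (20.0%, against 26.7%). Without HD PV replicate 1 it was 18 (21.2%, against 21%).

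In the cerebellar vGluT2 line, the effect in total RNA minus that in IPs was called for 23 of 84 members, 22 of them higher and 1 lower (27.4%, against 28.6% of all genes), with a median of 0.56 against 0.02. DESeq2 called 32, 31 higher and 1 lower (38.1%, against 33.7% of all genes). Without the IPs of the 3 mice with mixed Y-linked RNA, which leaves 2 of 5 control IPs, the count was 4 (4.76%, against 16.3% of all genes) and the median 0.39. Total RNA and IPs came in part from the same mice. With the mouse as a block, in 3 control mice, 1 of them with mixed Y-linked RNA, and 4 HD mice, 14 members were called, all higher (16.7%, against 17.3% of all genes), with a median of 0.59. With all libraries kept, Cox4i1 (1.07 ± 0.21, edgeR's adjusted p = 0.00085), Atp5g2 (1.05 ± 0.25, 0.0035), Sdhb (0.80 ± 0.22) and Atp5c1 (0.76 ± 0.16) were higher, and Ndufs1 (-0.72 ± 0.26, 0.0415) was the lower one. Among total RNA libraries the count was 11, 1 of them lower, without control replicate 1 (13.1%, against 23.0% of all genes). It was 13 without control replicate 2 (15.5%, against 24.1%) and 12 without control replicate 4 (14.3%, against 22.5%). Without HD replicate 2 it was 15 (17.9%, against 26.6%) and without HD replicate 3 it was 12 (14.3%, against 24.2%). Among IPs the count was 14 without control replicate 1 (16.7%, against 24.7% of all genes) and 12 without HD replicate 1 (14.3%, against 25.1%). It was 13 without HD replicate 3 (15.5%, against 24.9%) or HD replicate 5 (15.5%, against 25.3%).

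Promoters, which the choice by symbol did not use, were searched for motifs of factors known for the nuclear control of respiration. Nuclear respiratory factor 1 (NRF1) binds a GC-rich palindrome and is known for driving many such genes. Promoters of RefSeq, 250 bases before to 50 after the start on build GRCm38.p6, were available for 67 members of 16513 genes. Matches were read only in the 250 bases before the start. The letters GCGCA and GCGC with any base between them, searched on both strands, were present in 13 of the 67 (19.4%) and in 999 of all 16513 (6.05%). By complex, 6 of 32 genes of complex I matched, 2 of 3 of complex II, 0 of 5 of complex III, 1 of 14 of complex IV and 4 of 13 of complex V. The letters CCGGAAG, bound by GABPA, were present in 12 (17.9%, against 10.5% of all), AAGGTCA of ERR alpha in 5 (7.46%, against 4.15%) and AAGATGG of YY1 in 1 (1.49%, against 4.79%). A match is a description of the letters and shows no binding.

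Windows from RefSeq show such matches with the motif in capitals and the flanking bases in lower case, 5′ to 3′ on the gene's strand. They were chosen for genes named in the text, with 1 of several matches shown for Sdha and for Cox6a1: Sdha at chr13:74350276-74350305 on the minus strand, higher in PV and SST IPs, Sdhd at chr9:50603909-50603938 on the minus strand, the gene whose groups did not overlap in cerebral vGluT2 IPs, Cox6a1 at chr5:115349056-115349085 on the minus strand, the common partner of Cox6a2, and Atp5g2 at chr15:102671070-102671099 on the minus strand, called in cerebellar total RNA.
Sdha: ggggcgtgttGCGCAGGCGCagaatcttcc
Sdhd: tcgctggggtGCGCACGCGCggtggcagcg
Cox6a1: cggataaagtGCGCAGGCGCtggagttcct
Atp5g2: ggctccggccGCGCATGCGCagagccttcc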

How the data were processed

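The authors aligned reads with STAR and quantified them with Salmon, and deposited an estimated count per gene and library on build GRCm38.p6, with no annotation release given. Of the values, 8.584% were not whole, and all were rounded. The 92 spike-in lines, at most 4.4544% of a library, were left out. GENCODE M21 gave gene types and positions for 55141 of 55401 genes. The members and lists were chosen with earlier results of these data known.

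Protein-coding genes whose mean count passed 10 were tested with edgeR 4.0.16 (quasi-likelihood, TMM, R 4.3.3, limma 3.58.1), with Benjamini-Hochberg adjusted p at most 0.05. HD was compared with control within each IP, and in total RNA with the Cre line as a covariate. IPs were compared with total RNA with genotype as a covariate, and with each other in a fit of all IPs. The fits were tested on simulated data. Tables were made with pandas 2.3.3 and numpy 2.4.6 under Python 3.11.15, and plots with matplotlib 3.10.9.

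Alternatives were DESeq2 1.42.0, its size factors, library totals without TMM, no filter or filterByExpr, all gene types, Xist or Y-linked RNA as a covariate, each library left out, a replicate block, the mouse as a block, a single line, controls alone, and the IPs without the mice whose Y-linked RNA was mixed. The Y-linked alternatives and the 3 differences between HD effects were chosen after seeing the data. Some replicates of the same number deviated together and others did not (r from -0.429 to 0.621 over genes). Among cerebral Gad2 IPs r was 0.575 to 0.621 for replicates 1, 2, 4 and 6, and -0.428 and -0.158 for 3 and 5. Among cerebellar Gad2 IPs it was 0.491 to 0.576 for replicates 1, 3 and 4, and -0.235 and 0.081 for 2 and 5. Since the direction was not common to all numbers, they were not read as pairs in the main fits. In 201 pairs of replicates the chi-square divided by its degrees of freedom was at least 7.96, so no library repeats another.

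Genes were named by rule: every member called in an HD comparison, or where over 10 were called the 10 with the largest fold change whose groups do not overlap; the members with the highest and lowest fold change in each IP; Ndufs1, Sdha, Uqcrc1, Cox4i1 and Atp5b; the isoform families; and in each contrast of levels the 3 highest and 3 lowest ratios, with the most abundant member of each complex in each IP.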

Additional observations from a re-analysis of the deposited data

Results flagged for a closer look

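Over 90 groups and measures of 4 to 6 libraries, 5 held a library far from the others, and chance flags about 1 in 20 groups. Control SST total RNA replicate 1 had 2.44% of its protein-coding counts on the members, against 1.70 to 1.80% in the other libraries of its group. The same library stood apart for complex I (0.698%, others 0.459 to 0.495%), complex III (0.247%, others 0.176 to 0.183%) and complex IV (0.557%, others 0.386 to 0.390%). Control cerebellar vGluT2 total RNA replicate 3 stood apart for complex IV (0.469%, others 0.376 to 0.383%).

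The HD effect was tested between groups in total RNA and IPs. It differed between cerebellar and cerebral total RNA for 6 members (7.06%, against 8.36% of all genes), and between total RNA and IPs of the cerebellar vGluT2 line for 23 members (27.4%, against 28.6% of all genes), by edgeR's quasi-likelihood test of the difference. Both shares are near those of all genes. With each library left out in turn the 6 ran from 0 to 32, and the genes called of any kind from 117 to 5640. The 23 became 4 without the IPs of the 3 mice with mixed Y-linked RNA, an alternative chosen after the data had been seen.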

How the results depend on the processing

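No named gene that was called in an HD comparison or a contrast of levels reversed its direction under any alternative tried. Counts were taken as moved beyond 1.5 times their value, HD medians beyond 1 SD between libraries and medians of log2 ratios beyond 2 standard errors. With a single library left out 253 stayed and 54 moved, and under the other alternatives 376 stayed and 36 moved. Where a value moved, the cause was not tested. Depth limits the isoforms with few counts, such as Cox7b2 and Ndufa4l2, whose fold changes rest on values near 0. Members called stayed at 0 with the replicate block in all 6 IPs, and the medians with that replicate block were 0.07, 0.10, 0.08, 0.28, 0.08 and -0.04 in cerebral Gad2, PV, SST, cerebral vGluT2, cerebellar Gad2 and cerebellar vGluT2, so it changed no call.

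With DESeq2, HD calls were 1 in cerebral total RNA, 3 for the difference between lines (3.57%, against 12.7% of all genes) and 11 for that between regions (12.9%, against 18.7%). Cerebellar against cerebral vGluT2 IPs had 18 higher and 15 lower. DESeq2 size factors gave 17 higher and 15 lower there. Without TMM factors cerebellar total RNA had 9 calls (19.9% of all genes), and cerebral vGluT2 against Gad2 IPs 0 higher. Without the filter the difference between regions had 0 calls and cerebral vGluT2 against Gad2 IPs 0 higher. In cerebellar total RNA the Gad2 line alone gave 0 calls and a median of 0.15, and the vGluT2 line alone 53 calls.

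With the mouse as a block, IPs were lower than total RNA for 3 members in cerebral Gad2, 5 in cerebral vGluT2 and 13 in cerebellar Gad2, and higher for 6 in cerebellar vGluT2, and cerebellar vGluT2 IPs were lower than cerebral ones for 12. The difference between regions then had 37 calls and that between total RNA and IPs 14. With total RNA of the same line, 4 were lower in cerebral Gad2, 8 lower in cerebral vGluT2 and 21 higher in PV. With control libraries alone, cerebellar against cerebral vGluT2 IPs had 19 higher and 3 lower, cerebral vGluT2 against Gad2 0 higher and 21 lower, and PV against SST 0 lower. With the 2 cell types alone, PV against SST had 0 lower and cerebellar against cerebral vGluT2 12 lower. Without the mice with mixed Y-linked RNA, cerebellar vGluT2 IPs had 14 higher and 22 lower than total RNA, and 15 higher and 12 lower than cerebral ones, and the difference between total RNA and IPs had 4 calls.

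With each library left out in turn, members called were 0 in all 6 IPs and for the difference between cerebellar IPs, 0 to 1 in cerebral and 0 to 56 in cerebellar total RNA, 0 to 13 for the difference between lines, 0 to 32 between regions and 11 to 34 between total RNA and IPs. The medians ran from 0.01 to 0.17 in cerebral Gad2, -0.05 to 0.10 in PV, -0.01 to 0.30 in SST, 0.16 to 0.32 in cerebral vGluT2, -0.07 to 0.20 in cerebellar Gad2 and -0.04 to 0.12 in cerebellar vGluT2 IPs, and from -0.03 to 0.07 in cerebral and 0.35 to 0.48 in cerebellar total RNA.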
